A study of Homo sapiens with 9 samples.

Results

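Subunits of the mitochondrial respiratory chain and ATP synthase were examined in A498 cells, a human kidney cancer line of the clear cell type (ccRCC), in which ARNT or BMAL1 had been depleted. Members were the rows of the count table whose names begin with NDUFA, NDUFB, NDUFC, NDUFS or NDUFV and a digit, with UQCR or with ATP5, those named SDHA to SDHD, CYC1, or COX4 to COX8 followed by A, B or C, and the 13 mitochondrial protein-coding rows. This gave 102 of 27673 genes. Of these, 81 were nuclear genes for subunits or their isoforms, 13 were mitochondrial mRNAs and 8 were other rows caught by name. RNA came from puromycin-selected pools of cells infected with lentivirus that expressed a short hairpin RNA, either a non-targeting control (shControl) or one directed at ARNT (shARNT) or at BMAL1 (shBMAL1), with 3 biological replicates in each group. All cells were otherwise wild type by their labels, and each target was depleted with 1 hairpin sequence. Such a label does not exclude mutations that the tumour line itself carries, such as loss of VHL, which the paper gives as frequent in ccRCC. A difference between groups therefore cannot be told apart from an effect of that hairpin or pool.

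The respiratory chain passes electrons from NADH (complex I) or succinate (complex II) through complex III to cytochrome c oxidase (complex IV), and ATP synthase (complex V) uses the resulting proton gradient. Its subunits are the products of both genomes of the cell. Complex II is wholly nuclear, while mitochondrial DNA supplies core subunits of complexes I, III, IV and V from long transcripts of its heavy and light strands. ARNT is the partner of the hypoxia-inducible factors (HIFs), BMAL1 pairs with CLOCK to drive circadian transcription, and ccRCC cells are known for a glycolytic metabolism driven by HIF.

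The libraries held between 35269851 and 36099075 counts. Levels are given as CPM, that is, counts brought to a common library size scaled by the trimmed mean of M values (TMM), and a gene was called at an adjusted p under 0.1 in edgeR's quasi-likelihood test over 15551 genes. ARNT had 50.5 ± 2.24 CPM (SD, n = 3) in shControl and 9.47 ± 0.432 in shARNT, a log2 fold change of -2.41. BMAL1, listed as ARNTL, had 16.3 ± 0.395 CPM in shControl and 5.02 ± 0.789 in shBMAL1, a change of -1.70. Both targets were also altered by the other hairpin: ARNT changed by -0.65 in shBMAL1, and ARNTL by 0.55 in shARNT. Of 11 markers of renal and ccRCC cells, 10 exceeded 1 CPM in every library, with CA9 as the exception at 0.833 to 80.2 CPM. Their CPM summed to between 8125 and 8180.4 in the shControl libraries, between 6143 and 6625 in those of shBMAL1 and between 2181.6 and 2338 in those of shARNT. VIM had the widest range among them, 786 to 6004 CPM over the 9 libraries, beside 620 to 1113 for KRT8 and 457 to 585 for KRT18. Of 12 markers of other cell types, 9 were under 1 CPM throughout, and CD3E, HBB and INS had no counts. The summed CPM of these 12 ranged, in shControl, from 231 to 245 and, in shBMAL1, from 35.2 to 38.9 and, in shARNT, from 40.9 to 50.9, nearly all of it COL1A1. The part of either shift in the results was not tested.

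Nuclear and mitochondrial subunit transcripts moved in opposite directions on balance after either depletion. Of the 81 nuclear genes, 77 passed the filter on low counts. In shARNT, 47 of these 77 were called higher and 18 lower than in shControl, where 40.5% of all genes tested were called higher and 41.3% lower. In shBMAL1, 47 were higher and 9 lower, against 31.9% and 31.5% of all genes. The median log2 fold change of the nuclear subunits was 0.26 in shARNT and 0.18 in shBMAL1, beside medians of -0.0072 and -0.0015 over all genes. The median in each shARNT library ranged from 0.22 to 0.27, and in each shBMAL1 library from 0.13 to 0.20, relative to the shControl mean. In bulk RNA, fewer cells of a kind and less RNA per cell cannot be told apart.

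The 13 mitochondrial mRNAs had medians of -0.37 in shARNT and -0.34 in shBMAL1. In shBMAL1 all 13 were called lower. In shARNT 9 were called lower and 1, ATP8, higher. Over all genes 31.5% were called lower in shBMAL1, and 41.3% lower and 40.5% higher in shARNT. The shARNT libraries had the largest TMM factors (1.10 to 1.11, against 0.932 to 0.944 in shControl), so the scaling bears on these values. Scaled by library size alone, the median of all genes shifted to 0.23 in shARNT, the nuclear median became 0.50 (62 higher and 10 lower) and the mitochondrial median -0.13 (4 higher and 7 lower). Both comparisons use the same shControl libraries, so their values are set side by side and no agreement between them is tested.

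**Figure D1:**
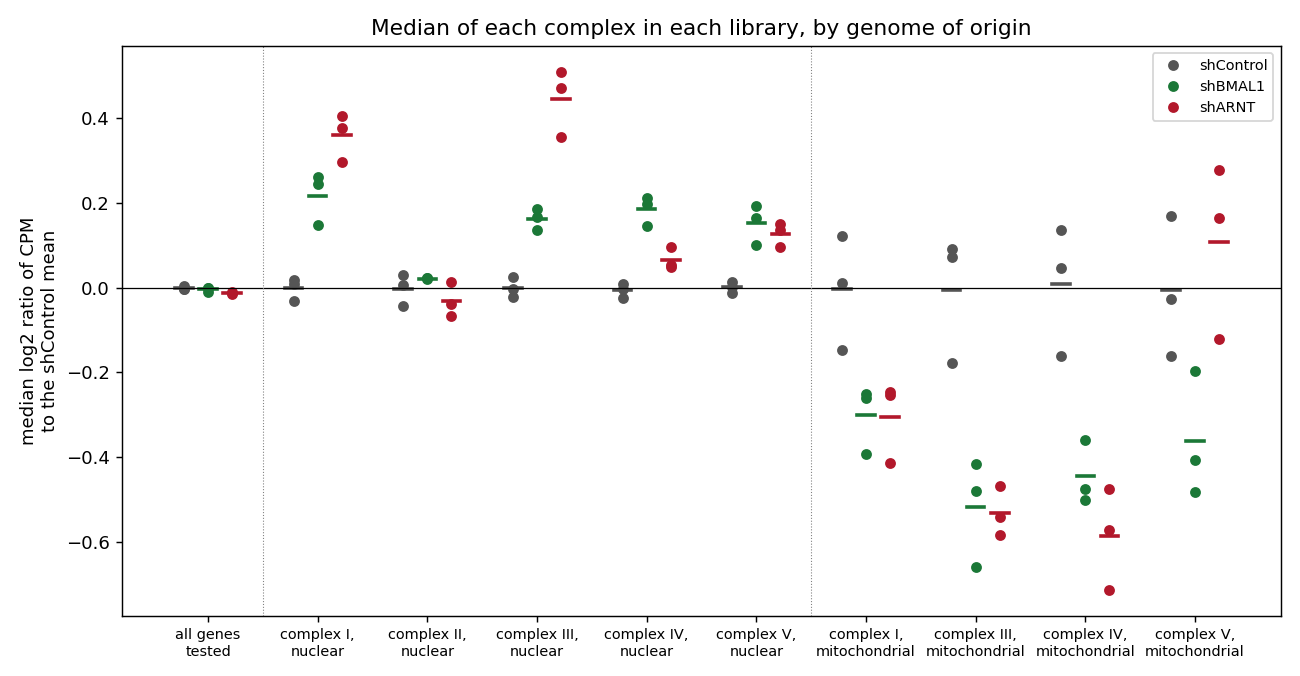
Median log2 ratio of CPM to the shControl mean (y axis) for the tested genes of each complex and genome, with 1 point for each library and a bar for the mean of 3 libraries in each group. Nuclear complexes I, III, IV and V lie above 0 in every depleted library, complex II lies near 0, and mitochondrial complexes I, III and IV lie below every shControl library; with scaling by library size alone the shARNT points shift upward by about 0.23.

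As a share of all counts, the mitochondrial mRNAs made up 6.77 ± 0.670% in shControl, 5.37 ± 0.289% in shBMAL1 and 5.71 ± 0.501% in shARNT (mean ± SD, n = 3). The nuclear subunits made up 0.581 ± 0.00741%, 0.639 ± 0.0112% and 0.872 ± 0.00936%. On the mitochondrial share shControl and shARNT overlapped, with 6.03% in shControl replicate 1 and 6.09% in shARNT replicate 1. The ratio of mitochondrial to nuclear subunit counts, which does not depend on the scaling, was 11.7 ± 1.30 in shControl, 8.41 ± 0.601 in shBMAL1 and 6.55 ± 0.508 in shARNT, and the 3 groups did not overlap. Per kilobase of annotated transcript in shControl, the median level was 53.8 CPM for nuclear complex I genes and 1941 CPM for mitochondrial ones.

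Complex I was the largest group, with 36 nuclear members, all tested. In shARNT 23 were higher and 8 lower (median 0.39), beside 40.5% and 41.3% of all genes. In shBMAL1 24 were higher and 4 lower (median 0.20), beside 31.9% and 31.5% of all genes. Its catalytic core subunits hold the flavin and iron-sulfur clusters that carry electrons from NADH to ubiquinone, and the accessory subunits surround them.

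NDUFS1 carries iron-sulfur clusters of the NADH-oxidising arm. It had 162, 156.4 and 159.5 CPM in the shControl libraries, 208, 205 and 213 in shBMAL1 and 328, 345 and 347 in shARNT. The 3 groups did not overlap, and its log2 change was 1.09 (SE 0.0378, adjusted p = 5.03e-16) in shARNT and 0.39 in shBMAL1. NDUFV1, the flavin-bearing subunit that binds NADH (chromosome 11, 67373124 to 67380025, GRCh37), had 123, 126 and 124 CPM in shControl, 62.3, 66.3 and 63.4 in shBMAL1 and 196, 192 and 182 in shARNT. It thus rose in shARNT, by 0.61 (SE 0.0419, adjusted p = 3.73e-11), and fell in shBMAL1, with -0.96 (SE 0.0437, adjusted p = 3.33e-13). The ratio of NDUFV1 to NDUFS1 counts was 0.781 ± 0.0255 in shControl, 0.307 ± 0.0143 in shBMAL1 and 0.559 ± 0.0350 in shARNT. NDUFV2, which pairs with NDUFV1 in the same arm, had 15.5 ± 1.22 CPM in shControl, 23.2 ± 1.78 in shBMAL1 and 22.2 ± 1.06 in shARNT, and was called higher after both depletions.

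NDUFS3, NDUFS7 and NDUFS8, core subunits nearer to ubiquinone, were higher in shARNT, at 0.70, 0.77 and 1.18. In shBMAL1 NDUFS3 (0.015) and NDUFS7 (0.0017) did not pass the test and NDUFS8 was higher (0.39). The largest rise in complex I in shARNT was that of NDUFS5, an accessory subunit, with 78.97, 72.5 and 73.3 CPM in shControl and 171, 176 and 167 in shARNT (1.19 (SE 0.0513, adjusted p = 1.76e-14)). In shBMAL1 NDUFS5 changed by 0.41.

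The NDUFA genes, accessory subunits spread over the complex, were mixed in shARNT, with 4 of 12 higher and 5 lower (median -0.056). These shares, 33.3% and 41.7%, were near the 40.5% and 41.3% of all genes. NDUFA12, an accessory subunit of the matrix arm, was the lowest, at 34.8, 30.9 and 34.5 CPM in shControl and 20.5, 21.8 and 22.05 in shARNT (-0.64 (SE 0.0646, adjusted p = 1.63e-08)). In shBMAL1 it had 38.3, 38.8 and 35.7 CPM and a change of 0.17, whose call was lost without shControl replicate 2 (0.12). Of the 11 NDUFB genes, subunits of the membrane arm, 8 were higher and 2 lower in shARNT, beside the same shares of all genes. In shBMAL1 9 were higher and 1 lower, beside 31.9% and 31.5% of all genes. NDUFB1 was the most increased complex I member in shBMAL1, from 8.72 ± 0.559 CPM in shControl to 13.5 ± 1.06 (0.63 (SE 0.109, adjusted p = 5.67e-05)), and its change in shARNT was -0.054 (0.18 with library size alone).

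**Figure D2:**
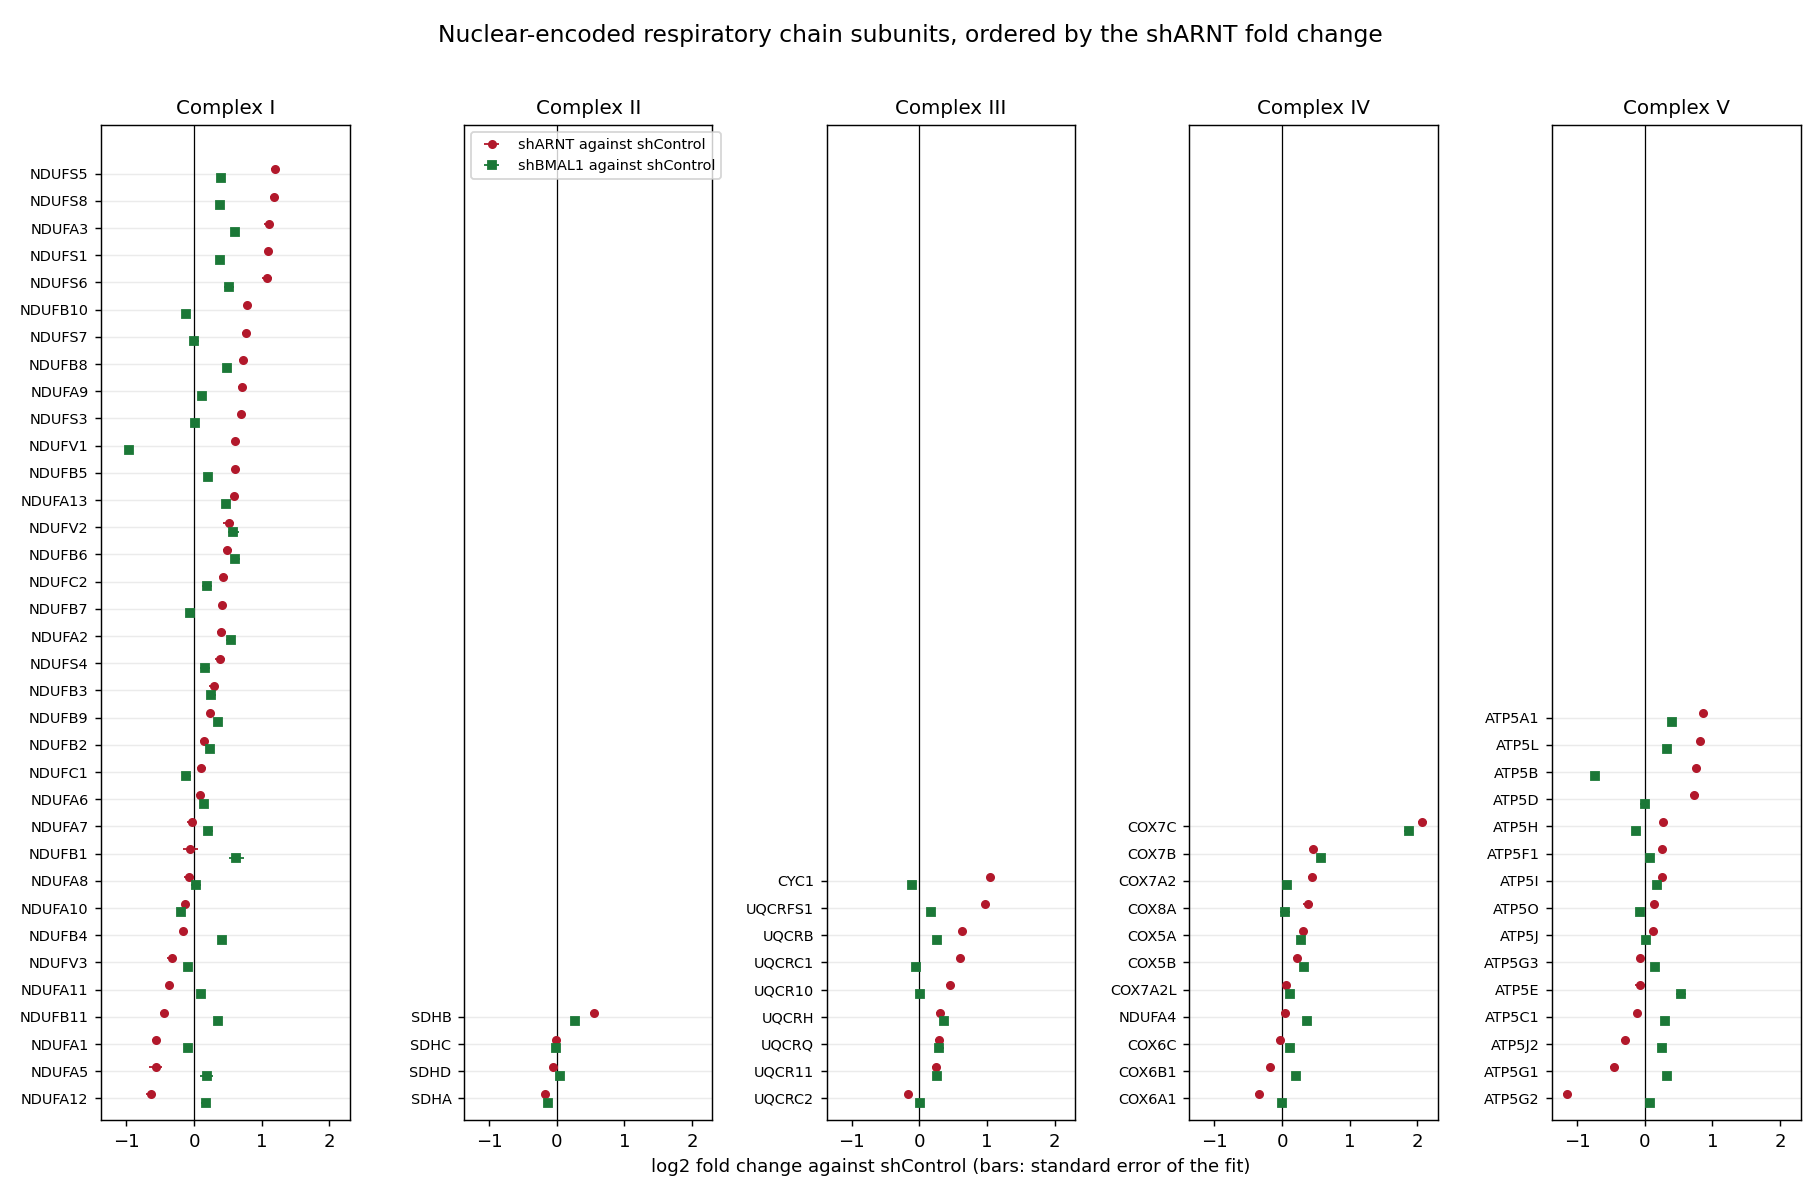
Log2 fold change against shControl (x axis, bars are the SE of the fit) of nuclear subunits in shARNT (circles) and shBMAL1 (squares), by complex and ordered by the shARNT value. NDUFV1 and ATP5B lie on opposite sides of 0 in the 2 depletions, COX7C lies far to the right in both, and ATP5G2 is the lowest shARNT value; NDUFA4L2 and COX6B2, with few counts, are among those not drawn, and of the genes named here SDHA, SDHC, SDHD, COX6B1, UQCRC2, ATP5G3, ATP5E, NDUFA7 and NDUFB1 change sign in shARNT with library size alone.

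Complex II, the succinate dehydrogenase shared with the citric acid cycle, changed little as a group, with medians of -0.030 in shARNT and 0.022 in shBMAL1. SDHB, its iron-sulfur subunit, was higher after both depletions, at 45.8 ± 3.05 CPM in shControl, 55.3 ± 3.56 in shBMAL1 and 66.9 ± 1.14 in shARNT (0.27 and 0.55). SDHA, the flavoprotein subunit, was called lower in both (-0.12 in shBMAL1 and -0.17 in shARNT), although with library size alone its shARNT value was 0.070. The membrane anchors SDHC and SDHD were not called in either depletion. SDHC had 115, 115 and 106 CPM in shControl, 115, 109 and 110.3 in shBMAL1 and 109, 111 and 113 in shARNT, and these groups overlapped.

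Complex III showed the highest median of any complex in shARNT, 0.45, with 8 of 9 nuclear members higher and 1 lower. In shBMAL1 5 were higher and 1 lower (median 0.18). Over all genes 40.5% were higher and 41.3% lower in shARNT, and 31.9% and 31.5% in shBMAL1. CYC1, which encodes cytochrome c1, had 137, 132 and 131 CPM in shControl, 122, 121 and 129 in shBMAL1 and 277, 271 and 273 in shARNT. The shARNT libraries stood far above the others, with a log2 change of 1.04 (SE 0.0395, adjusted p = 2.40e-15). The small decrease in shBMAL1, -0.10 (SE 0.0399, adjusted p = 0.0304), lost its call without shControl replicate 1 (-0.088) or shBMAL1 replicate 2 (-0.087). UQCRFS1, the Rieske iron-sulfur protein, rose from 56.99 ± 1.99 CPM to 111 ± 1.35 in shARNT (0.96) and to 64.4 ± 0.427 in shBMAL1 (0.18). The structural core proteins differed from each other, since UQCRC1 was 0.60 in shARNT while UQCRC2 was -0.16, which became 0.073 with library size alone. UQCRH, the hinge protein, was higher in shARNT (0.30) and in shBMAL1 (0.36), but its near-identical copy UQCRHL took 55.98% to 59.7% of the counts of the pair, and how reads were divided between them was not stated.

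Complex IV held 17 nuclear members, of which 13 were tested. In shARNT 6 were higher and 4 lower (median 0.059), that is 46.2% and 30.8%, beside 40.5% and 41.3% of all genes. The share called higher in shARNT was thus near that of all genes. In shBMAL1 8 were higher and 1 lower (median 0.12), beside 31.9% and 31.5% of all genes. COX7C, a small membrane subunit (chromosome 5, 85913745 to 85916779, GRCh37), had the largest increase of all nuclear members in both depletions. Its counts were 394, 396 and 384 in the shControl libraries, 1409, 1529 and 1506 in shBMAL1 and 1902, 2078 and 1933 in shARNT. No depleted library came near the shControl range, and the log2 change was 2.07 (SE 0.0633, adjusted p = 6.84e-17) in shARNT and 1.87 (SE 0.0639, adjusted p = 4.39e-15) in shBMAL1. COX5A and COX5B, matrix-side subunits, rose by far less: COX5A by 0.31 in shARNT and 0.28 in shBMAL1, and COX5B by 0.23 and 0.32. COX4I1, whose name the rule does not take although it encodes a subunit of the same complex, changed by 0.18 in shARNT and 0.23 in shBMAL1. Also outside the rule, cytochrome c (CYCS), the carrier between complexes III and IV, was higher in both (0.30 and 0.20). NDUFAB1, an acyl carrier protein within complex I, was 0.32 in shARNT and 0.14 in shBMAL1, the latter short of the call on leaving out any 1 of 3 libraries (shControl replicate 2 and shBMAL1 replicates 1 and 2, 0.099 to 0.13).

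Several complex IV subunits exist as alternative isoforms, some found mainly in muscle, lung or testis or known as hypoxia-responsive. COX6A1 was lower in shARNT (-0.35) with a value of 0.0038 in shBMAL1, while its muscle isoform COX6A2 had at most 1 count in any library. COX6B1 was 84.4 ± 2.43 CPM in shControl, 97.3 ± 3.90 in shBMAL1 and 74.6 ± 3.06 in shARNT, called higher in shBMAL1 (0.20) and lower in shARNT (-0.18, or 0.059 with library size alone). COX6B2, the testis isoform, had 2, 11 and 10 counts in shControl, 9, 12 and 1 in shBMAL1 and 0, 1 and 0 in shARNT, and the ratio of shARNT to shControl was 0.0363 with an exact 95% counting interval of 0.000881 to 0.224. COX7A2 was higher in shARNT (0.44) and was not called in shBMAL1 (0.071). COX7A2L, which aids the joining of complexes III and IV, was 0.059 in shARNT, and its call in shBMAL1 (0.12) was lost on leaving out any 1 of 3 libraries (shControl replicates 1 and 2 and shBMAL1 replicate 2, 0.084 to 0.11). The isoforms COX7A1 and COX8C had at most 2 counts in total in any group, and COX7B2 had none in the 9 libraries, where 3 counts in a library is the limit that a count of 0 allows.

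NDUFA4, named for complex I but known as a subunit of complex IV, had 70.9 ± 2.61 CPM in shControl, 91.1 ± 2.51 in shBMAL1 and 72.8 ± 2.93 in shARNT. Only the shBMAL1 libraries stood apart from shControl (0.36 (SE 0.0479, adjusted p = 2.09e-06)). Its paralog NDUFA4L2, a known HIF target that is abundant in many ccRCC tumours, was almost absent here, with 15, 10 and 16 counts in shControl, 7, 3 and 3 in shBMAL1 and 0, 3 and 0 in shARNT. Even so no depleted library reached the shControl range, while the depleted groups met at 3 counts. The ratio to shControl was 0.307 in shBMAL1 (exact 95% counting interval 0.151 to 0.584) and 0.0611 in shARNT (0.0121 to 0.192). COX4I2, the hypoxia-responsive counterpart of COX4I1, had 0, 3 and 0 counts in shControl and none after either depletion, which is too few to compare.

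Complex V had 15 nuclear members, with 9 higher and 4 lower in shARNT (median 0.13), beside 40.5% and 41.3% of all genes. In shBMAL1 9 were higher and 2 lower (median 0.15), beside 31.9% and 31.5% of all genes. The α and β subunits, which alternate in the catalytic head in equal number, moved in opposite directions in shBMAL1 and both rose in shARNT. ATP5A1, the α subunit, had 263, 249 and 263 CPM in shControl, 348, 337 and 341 in shBMAL1 and 473, 467 and 463 in shARNT. It was higher after both depletions (0.41 and 0.86). ATP5B, the β subunit (chromosome 12, 57031959 to 57039768, GRCh37), had 468, 472 and 471 CPM in shControl, 286, 284 and 277 in shBMAL1 and 784, 793 and 814 in shARNT. It fell in shBMAL1, with -0.74 (SE 0.0336, adjusted p = 3.33e-13), and rose in shARNT, with 0.76 (SE 0.0333, adjusted p = 2.44e-14). The ratio of ATP5B to ATP5A1 counts was therefore 1.83 ± 0.0644 in shControl, 0.826 ± 0.0149 in shBMAL1 and 1.70 ± 0.0498 in shARNT.

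ATP5G1, ATP5G2 and ATP5G3 encode the same mature subunit c of the rotor ring with different import sequences. ATP5G2 (chromosome 12, 54026510 to 54071192, GRCh37) had 155, 159 and 152 CPM in shControl, 154, 169 and 169 in shBMAL1 and 75.9, 71.7 and 62.6 in shARNT, the largest decrease in complex V (-1.15 (SE 0.0576, adjusted p = 2.29e-13)). ATP5G1 was lower in shARNT (-0.46) and higher in shBMAL1 (0.33). ATP5G3 was not called in shARNT (-0.065) and was higher in shBMAL1 (0.15). As a share of the counts of the 3 genes, ATP5G2 made up 35.3 ± 1.02% in shControl, 33.5 ± 0.510% in shBMAL1 and 21.4 ± 1.88% in shARNT. The share of ATP5G3 was 50.5 ± 1.57%, 50.4 ± 0.278% and 64.8 ± 1.28%. ATP5E, the ε subunit of the central stalk, was the most increased member of the complex in shBMAL1 (0.53) and was not called in shARNT (-0.073).

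**Figure D3:**
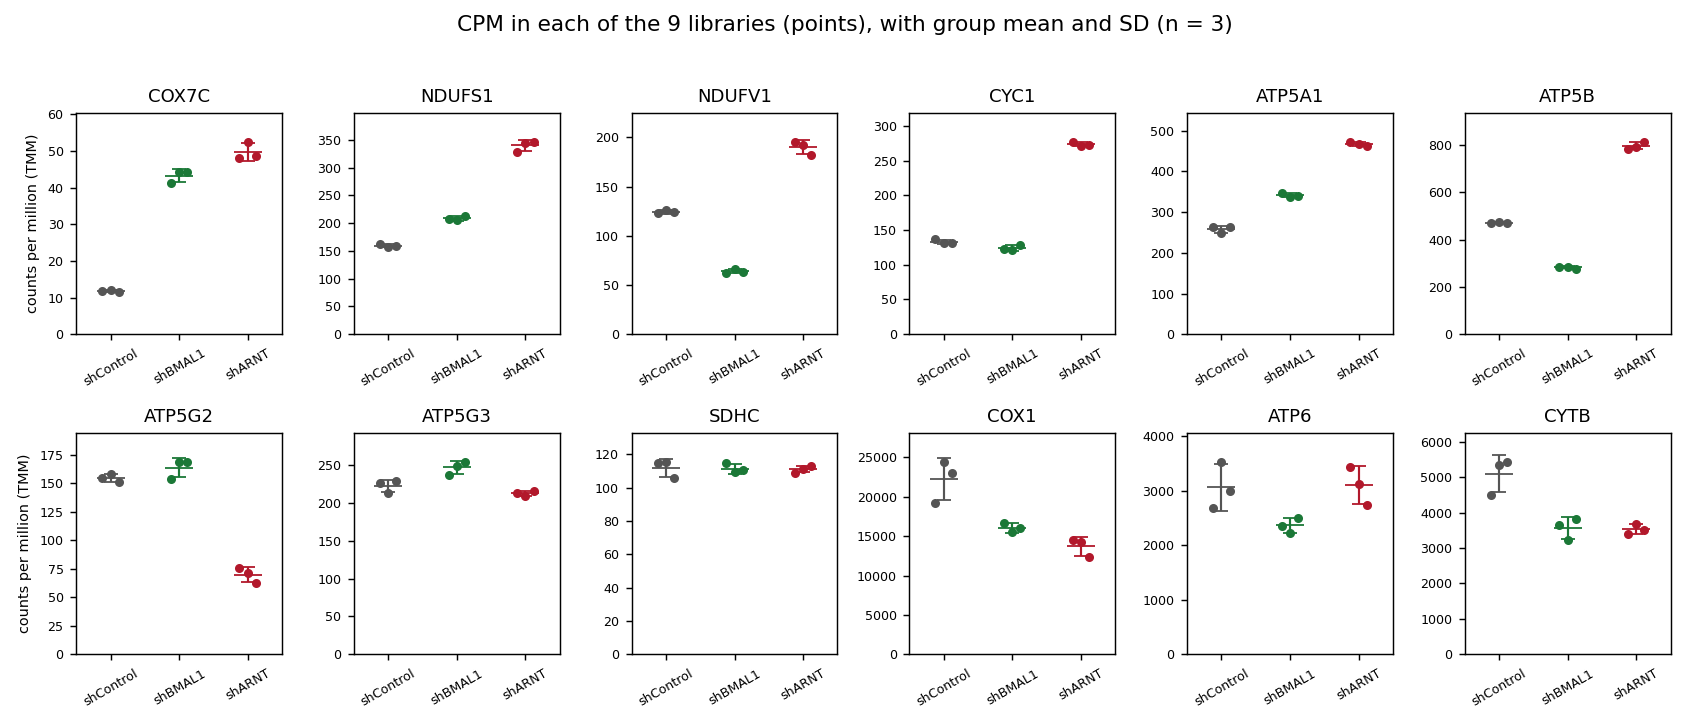
CPM (y axis, from 0) of 12 members in each of the 9 libraries, with the group mean and SD (n = 3). COX7C is higher in both depletions, NDUFV1 and ATP5B are low in shBMAL1 and high in shARNT, ATP5G2 is low in shARNT, SDHC overlaps in all 3 groups, and COX1 and CYTB are lower in every depleted library than in any shControl library.

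The mitochondrial mRNAs were next taken in the order of the genome. Most of those on the heavy strand, the long transcript that also carries the rRNAs, were lower after both depletions. COX1, the catalytic subunit of complex IV and the most abundant of them, had 19246, 24415 and 22940.1 CPM in shControl, 16621, 15459.8 and 15974 in shBMAL1 and 14564, 14197 and 12335 in shARNT. The groups did not overlap, and the log2 change was -0.70 (SE 0.0645, adjusted p = 4.36e-09) in shARNT and -0.47 (SE 0.0643, adjusted p = 3.01e-06) in shBMAL1. COX2, which takes electrons from cytochrome c, fell by 0.58 in shARNT and by 0.45 in shBMAL1 on the log2 scale, and COX3 fell by 0.49 and 0.32. CYTB, the cytochrome b of complex III, had 4499.8, 5353 and 5430.4 CPM in shControl, 3651, 3225 and 3816 in shBMAL1 and 3395, 3682 and 3501 in shARNT. Its decrease was alike in size in shARNT (-0.53) and shBMAL1 (-0.52).

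The ND mRNAs encode the proton-pumping membrane core of complex I. In shARNT the changes were -0.19 for ND1 (0.049 with library size alone), -0.37 for ND2, -0.37 for ND3, -0.38 for ND4L and -0.40 for ND4, all called lower. In shBMAL1 they were -0.20, -0.25, -0.32, -0.25 and -0.23, also called lower. Of these, ND4L and ND4 lost the call in shBMAL1 without shControl replicate 2 (-0.10 and -0.16), and ND4L also without shBMAL1 replicate 2 (-0.18). The ND4L and ND4 reading frames overlap on a shared mRNA, as do those of ATP8 and ATP6, so their counts are not independent.

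ATP8, ATP6, ND5 and ND6 were not called lower in shARNT, unlike the other mRNAs, although ND5 (-0.12) lay close to ND1 (-0.19). ATP6, a subunit of the proton channel of ATP synthase, had 2674, 3525 and 2988 CPM in shControl, 2356, 2226 and 2502 in shBMAL1 and 3432, 3112 and 2737 in shARNT. It was called lower in shBMAL1 (-0.37 (SE 0.0773, adjusted p = 0.000332)) and not called in shARNT (0.015). ATP8 had 434, 519.9 and 467 CPM in shControl and 621, 586 and 448 in shARNT, and these groups overlapped. Its call as higher in shARNT (0.22 (SE 0.0985, adjusted p = 0.0478)) was lost on leaving out any 1 of 4 libraries, shControl replicates 1 (0.16) and 3 (0.21) and shARNT replicates 1 (0.13) and 2 (0.18), and the value was -0.096 once a trend on GC content and length was removed. ND5 was -0.12 in shARNT, short of the call, which it reached without shControl replicate 1 (-0.21) or shARNT replicate 1 (-0.17), and it was -0.44 in shBMAL1.

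ND6 is the only mRNA of the light strand. It had 200.5, 237 and 224 CPM in shControl, 165, 162 and 181 in shBMAL1 and 251, 249 and 187 in shARNT. It was called lower in shBMAL1 (-0.38) and was not called in shARNT (0.053), where it was called higher without replicate 3 (0.18). The library strand was kept in the protocol, but whether counting used it was not stated, so ND6 reads and reads from the opposite strand cannot be told apart. These 4 mRNAs, grouped after their values were seen, made up 9.37 ± 0.206% of the mitochondrial mRNA counts in shControl, 9.27 ± 0.490% in shBMAL1 and 12.9 ± 0.401% in shARNT, a share that does not depend on the scaling. COX1 made up 30.7 ± 0.494%, 28.9 ± 0.534% and 26.5 ± 0.0908%.

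**Figure D4:**
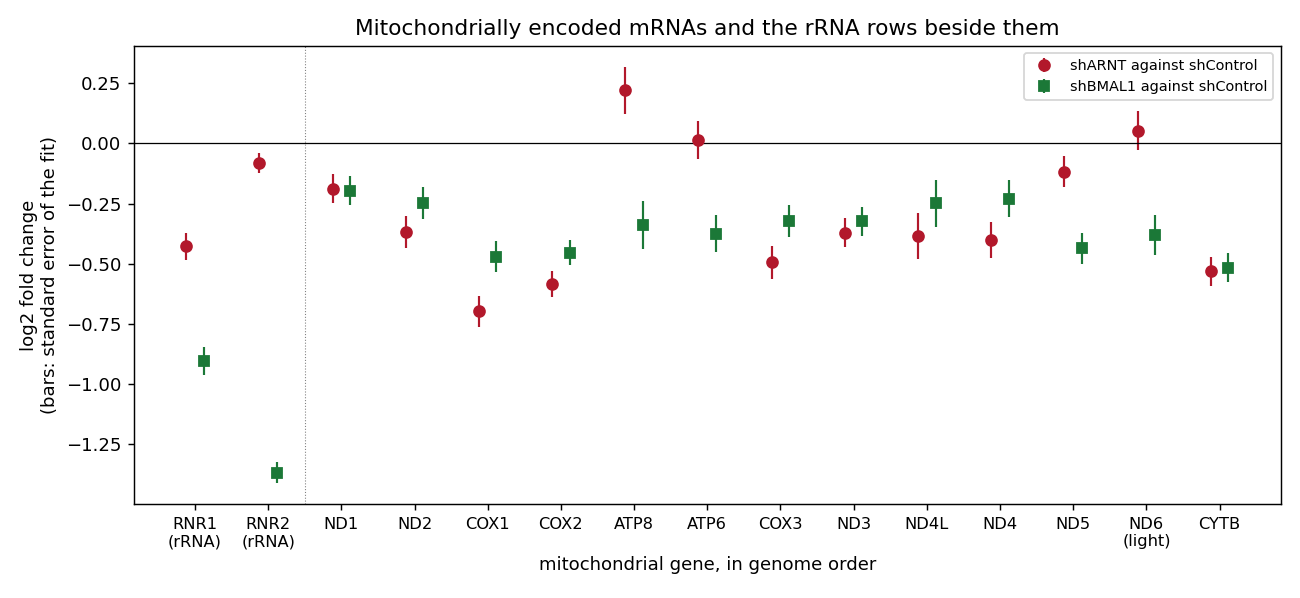
Log2 fold change against shControl (y axis, bars are the SE of the fit) of the 13 mitochondrial mRNAs and the 2 rRNA rows, in genome order, in shARNT (circles) and shBMAL1 (squares). In shBMAL1 every mRNA lies below 0, and in shARNT ATP8, ATP6, ND5 and ND6 lie near or above 0 while the others lie lower; with library size alone the shARNT values of RNR2, ND1 and ND5 become 0.16, 0.049 and 0.12.

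In shBMAL1 both mitochondrial rRNA rows fell more than any mitochondrial mRNA. RNR2, the large rRNA, had 24905, 26645 and 27420.3 CPM in shControl, 10160.1, 10226 and 10209 in shBMAL1 and 25897, 25974 and 22733 in shARNT. It fell in shBMAL1, with -1.37 (SE 0.0433, adjusted p = 1.43e-15). Its call as lower in shARNT (-0.082) was lost on leaving out any 1 of 3 libraries, shControl replicates 2 and 3 and shARNT replicate 3 (-0.076 to -0.019), and the value was 0.16 with library size alone. RNR1, the small rRNA, was -0.90 in shBMAL1 and -0.43 in shARNT, the latter within the range of the mRNAs. The libraries were made for mRNA, so the rRNA rows hold what remained of it, and their part in the mitochondrial results was not tested.

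The 2 depletions were then compared with each other directly. Of the 77 nuclear members tested, 35 were higher and 26 lower in shARNT than in shBMAL1, beside 40.1% and 41.1% of all genes, and the median was 0.030. Leaving out single libraries moved it between 0.0092 (without shARNT replicate 1) and 0.045 (without shBMAL1 replicate 3). With library size alone the split was 46 higher and 17 lower. NDUFV1 (1.57), ATP5B (1.50) and CYC1 (1.14) had the largest differences in favour of shARNT among the fixed core subunits, and ATP5G2 (-1.23) was well below. By complex, the nuclear medians were 0.094 for complex I, -0.025 for II, 0.36 for III, -0.12 for IV and 0.10 for V.

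Of the mitochondrial mRNAs, 4 were higher in shARNT than in shBMAL1 (ATP8 0.56, ND6 0.43, ATP6 0.39 and ND5 0.32) and 4 were lower (COX1 -0.23, COX3 -0.17, ND4 -0.17 and COX2 -0.13). Each count was 30.8% of the 13, beside 40.1% higher and 41.1% lower among all genes. With library size alone 7 were higher and none lower, and the 13 had a median of 0.14 in place of -0.048. The latter lay between -0.11 and -0.0058 without shBMAL1 replicates 2 and 3 respectively, the widest range on leaving out 1 library. The number called was 5 without shBMAL1 replicate 1 or without shARNT replicate 3. ND4, COX2 and COX3 lost their calls without either of these libraries, and ND4 also without shBMAL1 replicate 3.

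Promoters were read for the motifs of the factors concerned. Of the 81 nuclear genes, 65 matched a RefSeq promoter (GRCh38.p14, 250 bases before to 50 after the gene start). The palindromic E-box CACGTG, which CLOCK and BMAL1 bind, was found in 7 of these (10.8%) and in 7.26% of all 35116 promoters. The core of the HIF site, ACGTG or GCGTG on either strand, which every CACGTG also contains, was found in 39 (60.0%) and in 48.4%. Motifs known from many promoters of respiratory genes were more frequent: the ETS motif CCGGAAG in 18 (27.7% against 10.3%) and the YY1 motif AAGATGGC in 11 (16.9% against 2.89%), each on either strand. A match is a description of these letters and not a bound site. The 7 members with the E-box are shown with 10 bases on each side, in the direction of the gene, with the E-box in capitals, because it is the motif of 1 of the 2 depleted factors.
ATP5F1 (chr1:111449231-111449256, plus strand): cagcaaacccCACGTGgtgcacctct
ATP5I (chr4:674423-674448, minus strand): gcgtgcgcctCACGTGacgtcaccgc
ATP5G1 (chr17:48892781-48892806, plus strand): aggtccaggaCACGTGggtgggggaa
NDUFS7 (chr19:1383710-1383735, plus strand): ccgcggccccCACGTGcgcactccga
UQCR11 (chr19:1605634-1605659, minus strand): gccgccagacCACGTGgccagaaagc
NDUFA11 (chr19:5903907-5903932, minus strand): cctggggatgCACGTGctactctctt
NDUFA7 (chr19:8321480-8321505, minus strand): ggagaggagtCACGTGcttcggggag

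In shBMAL1 none of these 7 genes was called lower. Among all 77 nuclear members tested, 47 were called higher and 9 lower in shBMAL1, beside 31.9% and 31.5% of all genes. ATP5G1 (0.33), UQCR11 (0.26), NDUFA7 (0.21), ATP5I (0.18), NDUFA11 (0.10) and ATP5F1 (0.084) were called higher, and NDUFS7 was 0.0017. The call of ATP5F1 was lost on leaving out any 1 of 6 libraries, replicates 2 and 3 of shControl, 1 and 2 of shBMAL1 and 1 and 2 of shARNT (0.063 to 0.088), and that of NDUFA11 without shControl replicate 3 (0.085) or shBMAL1 replicate 3 (0.083). In shARNT the values were -0.46 for ATP5G1, 0.24 for UQCR11, -0.033 for NDUFA7 (0.20 with library size alone), 0.26 for ATP5I, -0.37 for NDUFA11, 0.26 for ATP5F1 and 0.77 for NDUFS7. No CACGTG was found in the promoter of NDUFV1, which was lower in shBMAL1, and ATP5B had no matched promoter. Whether the E-box bears on any of these changes was not tested.

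Other genes of the pathway were described from fixed lists. Of 53 assembly factors, which insert cofactors and join subunits, 33 were higher and 8 lower in shARNT (median 0.29), beside 40.5% and 41.3% of all genes. In shBMAL1 25 were higher and 10 lower (median 0.20), beside 31.9% and 31.5% of all genes. Those of complex IV were 17 of 24 higher and 2 lower in shARNT, and 10 higher and 6 lower in shBMAL1. COA6, which helps deliver copper to COX2, had 19.9 ± 0.909 CPM in shControl and 48.8 ± 1.03 in shARNT (1.30), and 0.048 in shBMAL1. SURF1, an assembly factor of complex IV, was 1.26 in shARNT and -0.13 in shBMAL1, where its call was lost without shBMAL1 replicate 2 (-0.12). HIGD1A, a small protein that associates with complex IV, was higher in both (0.71 and 0.75). BCS1L, which inserts UQCRFS1 into complex III, was the lowest assembly factor in shARNT (-0.59). C11orf83, another assembly factor of complex III, was the lowest in shBMAL1 (-0.68) and not called in shARNT. LYRM7, which acts in the same assembly step as BCS1L, was the lowest between shARNT and shBMAL1 (-0.84), with values of -0.31 in shARNT, not called, and 0.54 in shBMAL1, a call lost on leaving out any 1 of 7 libraries (range 0.27 to 0.60).

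Of 28 genes for the maintenance and expression of mitochondrial DNA, 21 were higher and 1 lower in shARNT (median 0.74), beside 40.5% and 41.3% of all genes. In shBMAL1 10 were higher and 6 lower (median 0.11), beside 31.9% and 31.5%, so that the share called higher was near that of all genes. TFAM, which packages mitochondrial DNA and starts its transcription, had 39.2, 36.8 and 34.4 CPM in shControl, 28.4, 27.5 and 32.1 in shBMAL1 and 57.9, 59.4 and 58.6 in shARNT. It was lower in shBMAL1 (-0.33 (SE 0.0651, adjusted p = 0.000234)) and higher in shARNT (0.67 (SE 0.0624, adjusted p = 4.57e-09)). LRPPRC, which stabilises mitochondrial mRNAs, was 1.24 in shARNT and -0.37 in shBMAL1. PNPT1, a mitochondrial RNA-degrading enzyme, was the most increased of the list in shARNT (1.60) and was 0.43 in shBMAL1. TFB1M, which methylates the small rRNA, was the most increased in shBMAL1 (1.03) and was 1.22 in shARNT. MTERFD3, of a family of regulators of mitochondrial gene expression, was the lowest in shARNT (-0.51) and was not called in shBMAL1 (0.12). POLG, the mitochondrial DNA polymerase, was lower in shBMAL1 (-0.66) and not called in shARNT (0.058). POLRMT, the mitochondrial RNA polymerase, was higher in shBMAL1 (0.18) and not called in shARNT (-0.065).

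Of 13 factors linked to mitochondrial biogenesis or its control by hypoxia, 9 were higher and 3 lower in shARNT, beside 40.5% and 41.3% of all genes, and 2 were higher and 7 lower in shBMAL1, beside 31.9% and 31.5%. LONP1, a protease of the mitochondrial matrix, had 195, 196 and 202 CPM in shControl, 115, 119 and 115 in shBMAL1 and 611, 599.9 and 625 in shARNT. It was the most increased of these genes in shARNT (1.63 (SE 0.0366, adjusted p = 5.01e-19)) and was lower in shBMAL1 (-0.77 (SE 0.0371, adjusted p = 7.71e-13)). PPARGC1A, a coactivator of biogenesis, was low throughout, at 0.343 ± 0.228 CPM in shControl, 1.34 ± 0.0838 in shBMAL1 and 0.741 ± 0.153 in shARNT, and was called higher in both. PPARGC1B, a related coactivator, was 1.42 in shARNT and -0.77 in shBMAL1, where its call was lost without shControl replicate 3 (-0.61) or shBMAL1 replicate 1 (-0.57). MIR210HG, the host transcript of a hypoxia-induced microRNA, was lower in shARNT (-3.59) and in shBMAL1 (-0.42).

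The 8 other rows caught by name are read-through, antisense, divergent or copied rows and genes merely named after a subunit. ATP5J2-PTCD1, a read-through row that shares exons with ATP5J2, was 0.25 in shBMAL1 and -0.072 in shARNT, where it was not called. NDUFA6-AS1, which starts beside NDUFA6 on the other strand without overlapping it, was lower in both (-1.83 in shARNT and -0.82 in shBMAL1), and NDUFB2-AS1, which lies within NDUFB2 on the other strand, was higher in both (0.40 and 0.25), the latter short of the call without shBMAL1 replicate 3 (0.16). Because the use of strand was not stated, NDUFB2-AS1 may share reads with NDUFB2. ATP5SL, named after ATP synthase but now known as an assembly factor of complex I (DMAC2), was 0.49 in shARNT and -0.52 in shBMAL1.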

How the data were processed

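RNA sequencing of 9 A498 libraries (3 per group) was analysed from a gene table of the whole series. The authors sequenced stranded mRNA libraries as paired-end reads, aligned them to GRCh37 in SeqMan NGen and took counts per gene from ArrayStar, while the submitters' processing notes name hg38, STAR and DESeq2. Strand use, the treatment of reads with several alignments and the counting of reads or pairs were not given in the sources used here, and mitochondrial reads may be shared with nuclear copies of mitochondrial DNA. The deposited values were expected counts without normalization, with 0.05 standing for no reads. They were rounded to whole numbers, and rows of 43 repeated names were summed, giving 27673 genes. All columns of single libraries were used.

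Differential expression was tested with edgeR 4.0.16 in R 4.3.3 (filterByExpr, TMM, quasi-likelihood F-test, 1 fit of all 9 libraries on group, Benjamini-Hochberg adjustment over 15551 genes, called under the study's cutoff of 0.1), and DESeq2 1.42.0 was an alternative. P-values measure the spread between 3 labelled biological replicates. Replicates differed by more than sampling noise. Gene positions, transcript lengths and GC content came from GENCODE release 44 lifted to GRCh37. Some annotated transcripts have very long 3' ends, which limits values per kilobase. Counting intervals are exact, at 95%, and cover counting error only. The computations were tested on simulated data.

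Genes named were the 2 targets, the 13 mitochondrial rows, fixed core subunits and isoform sets, the members with the largest called change in each direction by complex and comparison, the extremes of the pathway lists with 7 fixed genes of those lists, and members that failed the filter. NDUFV2, NDUFS7, NDUFS8, RNR1, RNR2, the E-box members and the rows caught by name were added after their values were seen. Not every member is named. The members and lists were chosen with earlier results of these data known.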

Additional observations from a re-analysis of the deposited data

Results flagged for a closer look

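Of the genes named, 15 were called in opposite directions by the 2 depletions, both against the same shControl libraries. The direct comparison of shARNT with shBMAL1 passed the same test in each. That outcome was largely set by choosing genes with opposite calls, so it is no separate support for them. Among the named members the difference (log2, shARNT minus shBMAL1) was 1.57 for NDUFV1, 1.50 for ATP5B, 1.14 for CYC1 and 0.56 for ATP8, all higher in shARNT, and -0.81 for NDUFA12, -0.79 for ATP5G1, -0.47 for NDUFA11 and -0.38 for COX6B1, all lower in shARNT. This list is not complete for the members, since others outside the named genes, such as NDUFB4, ATP5J2 and ATP5C1, also had opposite calls. Among the other genes of the pathway it was 2.40 for LONP1, 2.20 for PPARGC1B, 1.61 for LRPPRC, 1.39 for SURF1, 1.01 for ATP5SL and 1.00 for TFAM. ARNTL, the target of 1 of the hairpins, had 2.25. The adjusted p of the difference was at most 3.54e-05 in these 15. NDUFA11 and ATP5SL were named after their values were seen. The opposite calls of CYC1 and SURF1 rest on small decreases in shBMAL1, those of NDUFA11 and NDUFA12 on small increases in shBMAL1, that of PPARGC1B on its decrease in shBMAL1 and that of ATP8 on an increase in shARNT. These 6 calls were lost when single libraries were left out, and the COX6B1 decrease in shARNT changed sign with library size alone.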

How the results depend on the processing

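Alternatives were scaling by library size alone, DESeq2's size factors, mitochondrial rows left out of the scaling, DESeq2's Wald test, no filter, halved counts, only the 6 libraries compared, removal of a trend on GC content and length, a replicate block and the omission of each library. Of 4361 values for 81 named genes under these, 4086 kept their direction and side of the threshold, 97 lost the call, 67 gained it, 31 changed sign with a call before or after, and 80 changed sign with a call in neither. The cause of these changes was not tested. With library size alone the nuclear median was 0.50 in shARNT, 0.22 in shBMAL1 and 0.22 between them, and the mitochondrial median was -0.13 in shARNT and 0.14 between the depletions, while the median of all genes shifted to 0.23, 0.046 and 0.18 in the 3 comparisons. With the trend on GC content and length removed, the nuclear median was 0.12 in shBMAL1 and 0.082 between the depletions, and the mitochondrial median was -0.45 in shBMAL1. Values that changed sign with library size alone, with a call before or after, were in shARNT against shControl ND1 0.049, ND5 0.12, SDHA 0.070, SDHC 0.23, SDHD 0.19, COX6B1 0.059, ATP5G3 0.17, UQCRC2 0.073, ATP5E 0.16, NDUFA7 0.20, RNR2 0.16, ATP5J2-PTCD1 0.17 and POLRMT 0.17. In shARNT against shBMAL1 they were ND3 0.14, ND4 0.019, CYTB 0.18, COX2 0.060, COX3 0.018, SDHA 0.15, SDHC 0.18, COX4I1 0.14, COX7A2L 0.13, UQCRC2 0.016, UQCR11 0.17 and UQCRH 0.13. With the trend removed and the same condition, ATP8 was -0.096 in shARNT and UQCRC2 -0.079 in shBMAL1 against shControl, and CYTB was 0.12, SDHC 0.13, UQCR11 0.11 and COX4I1 0.078 in shARNT against shBMAL1. Without single libraries the mitochondrial mRNAs called between the depletions numbered 5 to 11.

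Libraries with the same replicate number did not deviate together (correlations from -0.21 to 0.29 over 5504 genes), so the numbers were not taken as pairs. With a replicate block 65, 56 and 61 nuclear members were called in shARNT, in shBMAL1 and between them, and 10, 13 and 9 mitochondrial mRNAs, in place of 65, 56, 61, 10, 13 and 8.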
